A study of Mus musculus with 8 samples.

Results

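Thioredoxins, peroxiredoxins and superoxide dismutases are among the proteins with which a cell disposes of superoxide and hydrogen peroxide. Of this system 10 genes were examined by name, among the 24639 gene entries counted in each library. They were the thioredoxins Txn1 and Txn2, the thioredoxin reductases Txnrd1 and Txnrd2, the thioredoxin-interacting protein gene Txnip, the peroxiredoxins Prdx1, Prdx3 and Prdx5, and the superoxide dismutases Sod1 and Sod2. All 10 members passed the filter on low counts in every comparison. The samples were untreated primary mesangial cells grown from kidney glomeruli of wild-type C57BL/6J mice (WT MMC) and of mice of that strain carrying a CRISPR-Cas9 deletion at miR-379 (miR-379KO MMC). Total RNA was sequenced from each genotype, and so was the RNA bound to AGO2 after immunoprecipitation from UV cross-linked cells (AGO2-IP), with 2 replicates, A and B, per genotype and assay. AGO2 is the Argonaute protein that holds a microRNA on its target RNA. The cells came from pooled glomeruli and had been passaged in culture, and the labels do not tie a replicate to an animal, so p-values measure only the spread between these samples. The study named Txn1 as a candidate target of miR-379 from these same AGO2-IP libraries, so a fall of Txn1 in AGO2-IP is not independent evidence. Its measure was reads at the predicted site relative to the rest of the 3′-UTR, whereas whole-gene counts are used here. The study also reported that a miR-379 mimic lowered a Txn1 3′-UTR reporter but not its site mutant. It further reported less Txn1 in miR-379KO AGO2-IP by quantitative PCR. In glomeruli of diabetic mice it reported a fall of Txn1 RNA in WT but not in miR-379KO, at the earliest time point. Staining of TXN1 protein there was weaker in diabetic than in nondiabetic WT, and higher in diabetic miR-379KO than in diabetic WT. These assays were not examined here.

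In the thioredoxin system, a thioredoxin reductase passes electrons from NADPH to thioredoxin, which in turn reduces disulfides, those of peroxiredoxins included. Superoxide dismutases turn superoxide into hydrogen peroxide, and peroxiredoxins then reduce the peroxide. TXN1, TXNRD1, PRDX1 and SOD1 work mainly in the cytosol and nucleus, whereas TXN2, TXNRD2, PRDX3 and SOD2 are mitochondrial and PRDX5 is found in several compartments. TXNIP binds and inhibits thioredoxin, and its gene is well known for its induction by glucose. Oxidative stress of mesangial cells is a known feature of the diabetic kidney.

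A microRNA pairs with a 3′-UTR mainly through its seed, bases 2 to 8. The mature miR-379-5p is shown first, with its seed in capitals (mouse genome GRCm38.p6, chr12:109709065-109709085, plus strand), because the seed defines what was searched for in the 3′-UTRs of the 10 genes.
miR-379-5p: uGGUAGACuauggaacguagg

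The complete match to the seed, GTCTACC, was in the 3′-UTR of 0 of the 10 genes and of 4.09% of the 18533 RefSeq 3′-UTRs searched on the transcript strand. TCTACC, the match to bases 2 to 7, occurred once each in Txn1, Txn2, Txnrd1, Prdx1 and Sod2, and in 21.2% of all 3′-UTRs. Among the 1900 3′-UTRs within 20% of the length of that of Txn1 the share was 11.2%. GTCTAC, the match to bases 3 to 8, occurred in Prdx3 and in 17% of all 3′-UTRs. Both 6-base words lie inside GTCTACC, and neither was found in Txnrd2, Txnip, Prdx5 or Sod1. The windows that hold a match are printed 5′ to 3′ on the transcript strand, with the matching bases in capitals, so that the site of Txn1 can be compared with those of its relatives.
Txn1, chr4:57943766-57943786, minus strand: aataaaatattaatTCTACCc
Txn2, chr15:77915201-77915221, minus strand: ctttatgtggtcctTCTACCt
Txnrd1, chr10:82897557-82897577, plus strand: gtggaatgaaatgtTCTACCc
Prdx1, chr4:116699938-116699958, plus strand: tggcctctgaaagaTCTACCt
Sod2, chr17:13015745-13015765, plus strand: gcaaggccctgggcTCTACCt
Prdx3, chr19:60864346-60864366, minus strand: tgccctgaaccttgGTCTACa

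In Txn1 (chr4:57943373-57956411, minus strand) the match began 133 bases after the stop codon in a 3′-UTR of 532 bases. The mutant Txn1 reporter described in the study's methods was shortened with a primer that ends just before this place. In Txn2 it began 537 bases into 693, in Prdx1 696 into 744, in Txnrd1 1526 into 1679 and in Sod2 588 into 2948. The counts used below are of whole genes, so they do not say where on a transcript the reads fell, and a match is only a description of the letters. The targeted gene could not serve as a check of the labels, since the entry for Mir379 had 0 counts in all 4 total RNA libraries, 0 and 4 in WT AGO2-IP, and 1 and 0 in the miR-379KO libraries of that assay.

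Total RNA libraries held 17168230 to 22660743 gene counts and AGO2-IP libraries 5587611 to 17095021. In AGO2-IP, however, 80.0% to 89.0% of gene counts were of Rn45s and Lars2, entries that hold ribosomal RNA sequence, which left 1115782 to 1875037 counts for all other genes. Reads outside genes made up 46.6% and 49.7% of uniquely placed reads in the WT AGO2-IP libraries, compared to 73.4% and 76.4% in those of miR-379KO. The 5038 coding genes silent in total RNA took 0.645% and 0.505% of the remaining counts in the former and 2.13% and 2.84% in the latter. Mesangial markers summed to 18969 to 28130 CPM (counts scaled to a common library total, here gene counts without Rn45s and Lars2) in total RNA, with 9 of 12 over 1 CPM in both WT libraries and 10 of 12 in both miR-379KO libraries. There the podocyte list reached 332 to 776 CPM, the parietal epithelial list 103 to 208, the tubule list 7.09 to 57.8 with Slc34a1 and Umod at 0, the endothelial list 8.38 to 19.6 and the macrophage list 4.62 to 14.8. In AGO2-IP the summed tubule markers were 36.8 to 46.1 CPM in WT and 126 to 167 in miR-379KO, the endothelial 16.2 to 30.4 and 51.2 to 59.2, the macrophage 20.6 to 22.4 and 61.9 to 92.3, the podocyte 219 to 462 and 350 to 463, the parietal epithelial 89.7 to 140 and 91.4 to 129, and the mesangial 7889 to 10138 and 5658 to 7471. These differences in make-up moved with genotype in every AGO2-IP comparison below, and their part in the results was not tested.

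The 10 genes differed widely in level, and their order was similar in both genotypes. Levels are in CPM per kb of exon, since genes can be compared only per length. In WT total RNA Prdx1, the abundant cytosolic peroxiredoxin, stood at 349 ± 79.1 (SD, n = 2), Sod1, the copper-zinc dismutase, at 307 ± 124, and Txn1 at 200 ± 10.6. Next came Prdx5 at 101 ± 42.0, the mitochondrial Txn2 at 88.8 ± 37.3, Txnip at 84.9 ± 9.54 and Txnrd1 at 73.4 ± 3.62. The other mitochondrial members were the lowest, with Prdx3 at 45.6 ± 6.04, Sod2, the manganese dismutase, at 10.2 ± 0.746 and Txnrd2 at 6.06 ± 0.249. In this order the replicates of Prdx1 and Sod1, of Prdx5 and Txn2, and of Txn2 and Txnip overlapped, and those of the other neighbours did not. In miR-379KO total RNA Txn1 was again the third of the 10, at 215 ± 19.4, and Txnrd1 (89.8 ± 0.832) stood above Txnip (58.1 ± 3.30) without overlap, the reverse of WT. Exon lengths cover all exons of the curated RefSeq transcripts of each of these genes, so exon sequence that these cells do not use lowers a value.

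**Figure D1:**
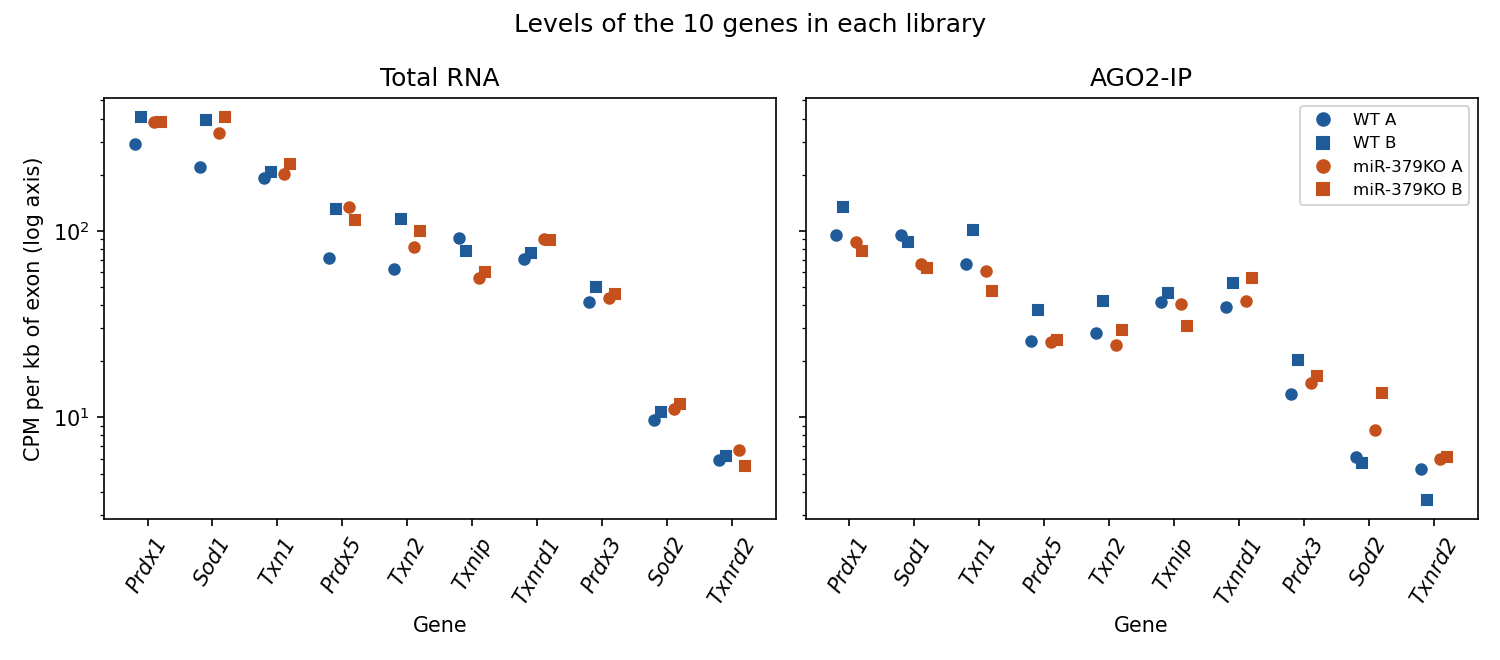
Level of each of the 10 genes in CPM per kb of exon (log axis) in the 4 total RNA libraries and the 4 AGO2-IP libraries, with circles for replicate A and squares for replicate B. Prdx1, Sod1 and Txn1 lead in both assays, and Sod2 and Txnrd2 are lowest.

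In AGO2-IP, Prdx1, Sod1 and Txn1 were also the highest 3 per kb. Txn1 was at 83.6 ± 24.2 in WT and 54.4 ± 9.44 in miR-379KO, Prdx1 at 115 ± 28.3 and 82.6 ± 6.79, and Sod1 at 90.8 ± 5.37 and 64.7 ± 1.90. Txnrd1 (46.1 ± 9.59 in WT) and Txnip (44.1 ± 3.67) came next there, above Txn2 (35.3 ± 9.88) and Prdx5 (31.7 ± 8.58), whose means stood above Txnrd1 in total RNA. In WT total RNA, however, Txn2 (62.4 and 115) and Prdx5 (71.6 and 131) overlapped Txnrd1 (70.9 and 76.0). In WT AGO2-IP Txnrd1 (39.3 and 52.8) overlapped Txn2 (28.3 and 42.3) but not Prdx5 (25.6 and 37.7). Of neighbours in this order, Sod1 and Txn1, Txnrd1 and Txnip, Txnip and Txn2, and Txn2 and Prdx5 overlapped in WT, and Txn1 and Txnrd1 and also Txn2 and Prdx5 in miR-379KO. Of the 10 genes, 3 have near-identical copies elsewhere in the genome, at 97% identity or more over at least 50 bases. Copies covered 99.9% of the Prdx1 mRNA (3 copies) and 94.0% of the Sod1 mRNA (1 copy), and repeats covered 36.8% of the Sod2 mRNA (130 copies). Reads that fit more than 1 place were left out of the counts, so the counts of Prdx1, Sod1 and Sod2 are uncertain. Txn1 and the other 6 members had 0 such copies.

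The first comparison asked whether loss of miR-379 went with other transcript levels of these genes. In total RNA 0 of the 10 genes passed the test in edgeR (adjusted p-value under 0.05), 0 had an unadjusted p under 0.05 and 0 passed in DESeq2. Of all 12318 genes tested, 0% were called higher and 0% lower. The log2 fold changes of miR-379KO over WT had a median of 0.17 over the 10 genes and −0.01 over all genes tested, and 9 of the 10 were above 0. Of all genes tested 51.3% were below 0. Without WT A, Txn2 (−0.27), Prdx3 (−0.095), Sod1 (−0.022), Prdx5 (−0.014) and Prdx1 (−0.012) were below 0 too, whereas Txn1, Txnrd1, Txnrd2 and Sod2 stayed above. By the study's own cutoff, over 1.5-fold with an unadjusted p under 0.05, 0 of the 10 passed, where 0.333% of all genes were higher and 0.349% lower.

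For Txn1, the cytosolic thioredoxin, WT A held 3138 counts and WT B 3614, compared to 4521 in miR-379KO A and 3963 in miR-379KO B. In TMM-scaled CPM, the scale of the test, these were 187 and 198 against 197 and 233. The groups overlapped, and the log2 fold change was 0.16 ± 0.22 (SE), with a 95% interval of −0.37 to 0.68. In such bulk samples fewer cells that express a gene and less RNA per cell cannot be told apart. Txn2, the mitochondrial thioredoxin, had 1242 and 2449 counts in WT, against 2246 and 2105 in miR-379KO, with a log2 fold change of 0.09 ± 0.32. WT A was the lowest library for Txn2, and the groups overlapped.

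Txnip had the only negative value among the 10. It had 3984 and 3629 counts in WT, against 3335 and 2788 in miR-379KO, or 238 and 199 against 145 and 164 TMM-scaled CPM. Both miR-379KO libraries lay below both WT libraries, and the log2 fold change was −0.50 ± 0.22, with a 95% interval of −1.03 to 0.04 (unadjusted p = 0.0626 in edgeR, not passing after adjustment). Groups did not overlap for 9.07% of all genes in that direction. Txnrd1, the cytosolic reductase, had 4422 and 5065 counts in WT, against 7754 and 5904 in miR-379KO, or 264 and 277 against 337 and 347 TMM-scaled CPM. Here both miR-379KO libraries were the higher, and the log2 fold change was 0.34 ± 0.22, with an interval of −0.19 to 0.87. Sod2 was also higher in both miR-379KO libraries, at 39.3 and 43.8 against 34.2 and 37.2, with a log2 fold change of 0.22 ± 0.21. Groups did not overlap for 9.9% of all genes in that direction, and 2 of the 10 were among them.

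The other members overlapped between genotypes, and in most of them the WT replicates differed more than those of miR-379KO. Sod1 had 2168 and 4171 counts in WT, against 4547 and 4266 in miR-379KO (log2 fold change 0.33 ± 0.32). Prdx5 had 1412 and 2759 against 3638 and 2384 (0.34 ± 0.31), and Prdx1 6457 and 9525 against 11651 and 8935 (0.19 ± 0.26). For Sod1, Prdx5, Prdx1 and Txn2 WT A was the lowest of the 4 libraries on the TMM scale. Prdx3, the mitochondrial peroxiredoxin, had 928 and 1196 counts against 1345 and 1086 (0.02 ± 0.21), and Txnrd2, the mitochondrial reductase, 174 and 197 against 273 and 172 (0.06 ± 0.25). With WT B left out, 2 members were higher and 1 lower by the study's cutoff in place of 0, where 3.93% and 6.3% of all genes were.

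**Figure D2:**
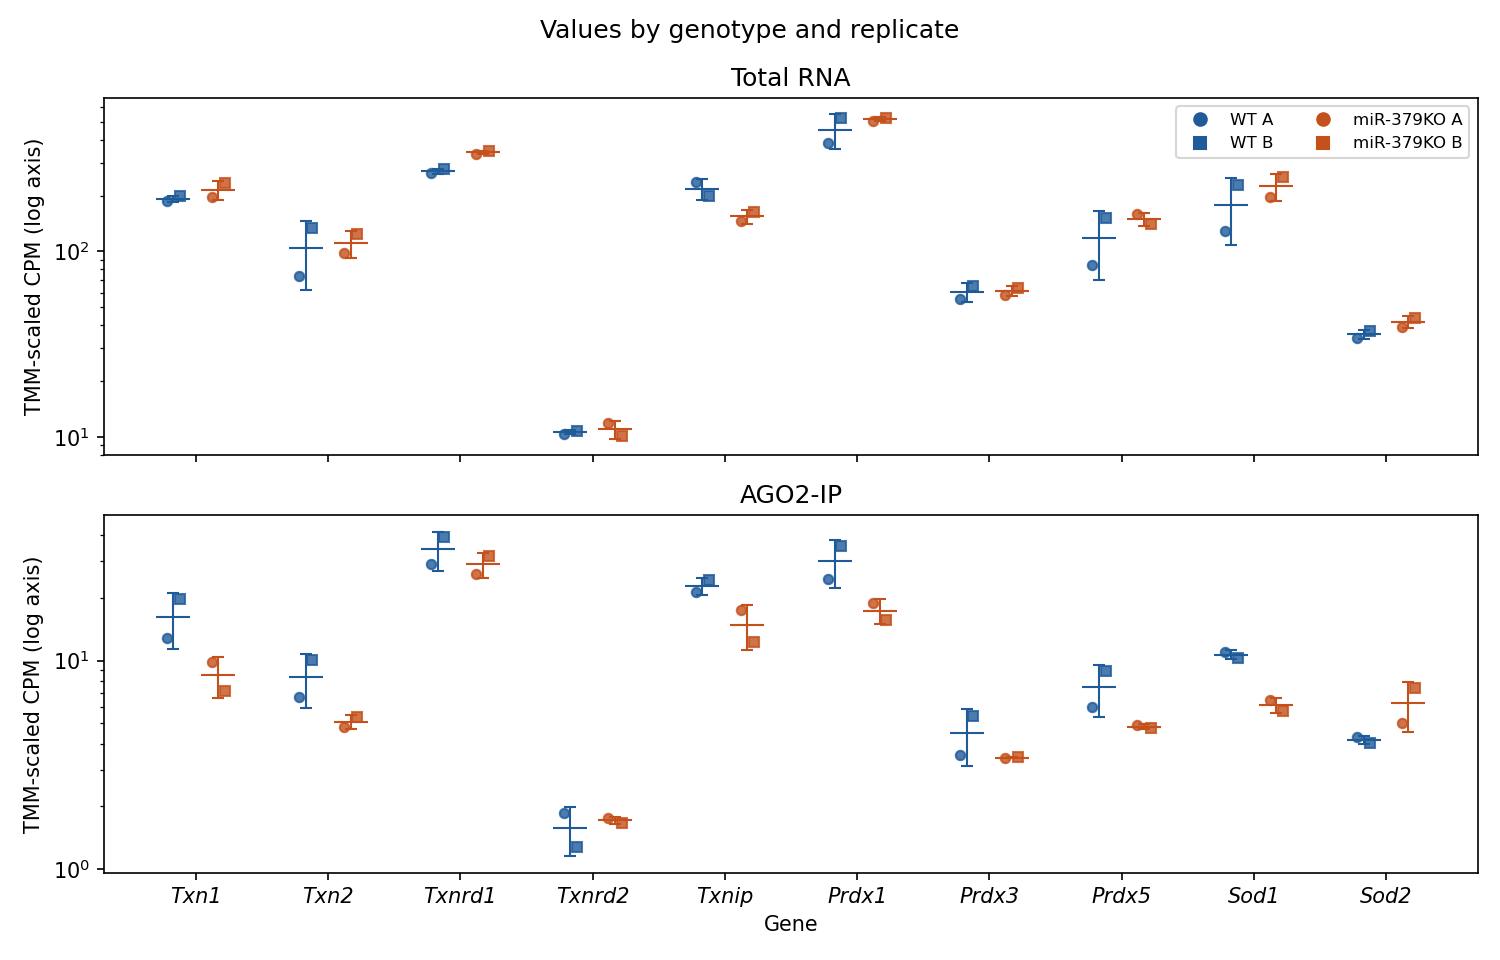
TMM-scaled CPM (log axis) of each gene in WT (blue) and miR-379KO (orange), for replicates A (circle) and B (square), with the mean as a horizontal line and the SD as the error bar (n = 2). In total RNA only Txnip lies lower in both miR-379KO libraries than in both WT libraries, whereas in AGO2-IP 7 genes do and Sod2 lies higher.

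The second comparison asked which of these transcripts were recovered less with AGO2 when miR-379 was missing. In AGO2-IP 4 of the 10 genes were lower in miR-379KO than in WT, namely Txn1, Sod1, Prdx1 and Txnip, and 0 were higher. Of all 13500 genes tested, 9.42% were called lower and 21.4% higher. The share of calls differed with transcript level, however. Among the 3651 tested genes with a mean over 1000 counts in total RNA, to which 8 of the 10 belong, 26% were lower and 0.192% higher, and their median log2 fold change was −0.45 (quartiles −0.67 and −0.22). The 10 genes had a median of −0.61, and 8 of them were below 0, as were 50.5% of all genes tested. By the study's cutoff 6 of the 10 were lower and 0 higher, against 13.3% and 26.1% of all genes and 32.3% and 0.301% of those over 1000 counts. Txn2 and Prdx5 were the members that this cutoff added.

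For Txn1 WT A held 131 counts and WT B 170, compared to 84 in miR-379KO A and 56 in miR-379KO B. In TMM-scaled CPM, here relative to a total that includes Rn45s, these were 12.8 and 19.7 against 9.86 and 7.16. Both miR-379KO libraries were below both WT libraries. The log2 fold change was −0.92 ± 0.25 (SE), or 0.528 times the WT value, with a 95% interval of −1.44 to −0.40 (adjusted p = 0.00929 in edgeR). It was the lowest value of the 10 in this fit, and 6.79% of the genes over 1000 counts had a lower one. With an offset for GC and exon length Prdx1 was lower, at −1.12 against −0.77 for Txn1. Sod1 was lower without WT B, at −0.90 against −0.63, and slightly so without miR-379KO B, at −0.75 against −0.74. The call of Txn1 was lost without either B replicate. Without WT B the value was −0.63 (adjusted p = 0.114) and without miR-379KO B it was −0.74 (adjusted p = 0.130), whereas without either A replicate it passed. It was also lost when the genes tested averaged 50 counts or more (−0.55, adjusted p = 0.216) and with all 8 libraries in 1 fit (−1.08, adjusted p = 0.0508).

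Txnip had 218 and 210 counts in WT, against 149 and 96 in miR-379KO, or 21.3 and 24.3 against 17.5 and 12.3 TMM-scaled CPM. The groups did not overlap, and the log2 fold change was −0.61 ± 0.23, with an interval of −1.09 to −0.13 (adjusted p = 0.0476 in edgeR). Of the genes over 1000 counts, 30.8% had a lower value. This call lay close to the threshold. It was lost without WT B (adjusted p = 0.174) or miR-379KO B (0.417), with TMM factors from genes expressed in total RNA (0.137) and with those that leave out the 20 most abundant genes (0.0639). Among genes averaging 50 counts or more its value was −0.25 (adjusted p = 0.502), and with all 8 libraries in 1 fit the adjusted p was 0.0764.

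Sod1 had 113 and 89 counts in WT, against 55 and 45 in miR-379KO, or 11.1 and 10.3 against 6.46 and 5.75 TMM-scaled CPM. This was the closest agreement between replicates among the genes called. The log2 fold change was −0.80 ± 0.24 (adjusted p = 0.0155 in edgeR), but it turned to 0.061 once GC and exon length entered the fit as an offset. Sod1 is the shortest of the 10, with 637 bases of exon. Prdx1 had 252 and 307 counts against 162 and 123, or 24.7 and 35.5 against 19.0 and 15.7 TMM-scaled CPM. Its groups did not overlap, with a log2 fold change of −0.79 ± 0.24 (adjusted p = 0.0159 in edgeR). Values below that of Sod1 were found for 13.6% of the genes over 1000 counts, and below that of Prdx1 for 15%. Both calls were lost without miR-379KO B (adjusted p = 0.159 for each), and that of Prdx1 also without WT B (0.196). Among genes averaging 50 counts or more Sod1 was at −0.44 (adjusted p = 0.304) and Prdx1 at −0.42 (0.260), and with all 8 libraries in 1 fit the adjusted p was 0.0799 and 0.0682.

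The remaining members did not pass. Txn2 had 68 and 87 counts in WT, against 41 and 42 in miR-379KO, with a log2 fold change of −0.71 ± 0.27 (adjusted p = 0.0515 in edgeR). Prdx5 had 61 and 77 against 42 and 37 (−0.61 ± 0.28, adjusted p = 0.0943), and Prdx3 36 and 47 against 29 and 27 (−0.37 ± 0.32, adjusted p = 0.385). In these 3 genes both miR-379KO libraries lay below both WT libraries on the TMM scale, so 7 of the 10 did so in all. Over all genes tested 32.2% did. All 7 belong to the genes over 1000 counts in total RNA, whose median log2 fold change was −0.45. The share without overlap among those genes was not counted, so 32.2% is not a level-matched yardstick. With the GC and length offset Prdx5 was at 0.052.

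The reductases and the manganese dismutase gave other values. Txnrd1 had 296 and 341 counts in WT, against 222 and 249 in miR-379KO, or 29.0 and 39.4 against 26.1 and 31.8 TMM-scaled CPM, and its groups overlapped (−0.24 ± 0.24, interval −0.73 to 0.25). Txnrd2 had only 19 and 11 against 15 and 13 counts (0.11 ± 0.43, interval −0.77 to 0.99), so differences of up to about that size could not be detected, and its sign changed with the settings. Sod2 had 44 and 35 counts in WT, against 43 and 58 in miR-379KO, or 4.31 and 4.05 against 5.05 and 7.42 TMM-scaled CPM. It was the 1 gene of the 10 with both miR-379KO libraries above both WT libraries, which 36.1% of all genes showed. Its log2 fold change was 0.57 ± 0.29, with an interval of −0.02 to 1.16 (adjusted p = 0.132 in edgeR).

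**Figure D3:**
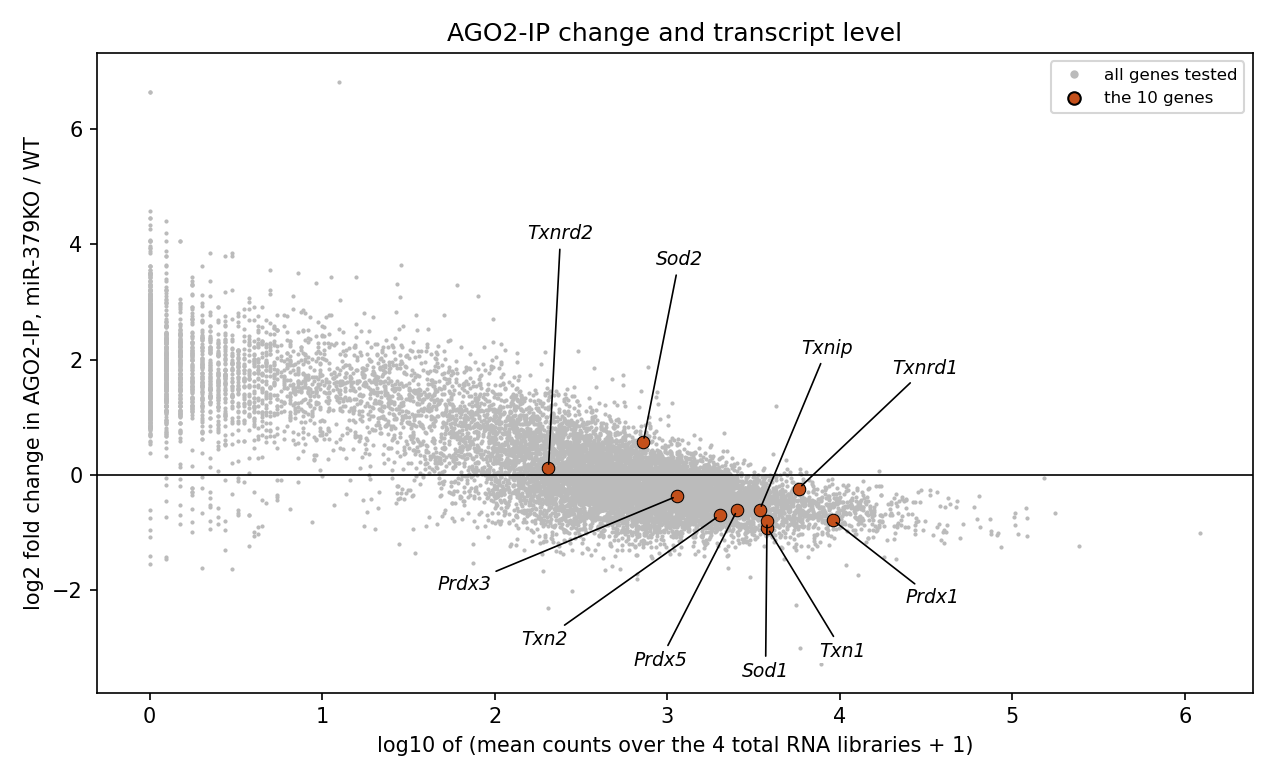
log2 fold change of miR-379KO over WT in AGO2-IP against log10 of the mean counts in total RNA plus 1, for all 13500 genes tested (grey) and the 10 genes (orange). The grey cloud slopes down from genes absent in total RNA to abundant genes, and 8 of the 10 lie below 0, among the abundant genes.

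The scale matters for these values. TMM factors moved every log2 difference of miR-379KO from WT by −0.32 in AGO2-IP and by 0.05 in total RNA, relative to CPM of gene counts without Rn45s and Lars2. In such CPM per kb, Txn1, Sod1 and Prdx1 were lower in miR-379KO too, by the means given above, and so was Txnip, at 44.1 ± 3.67 (SD, n = 2) in WT compared to 35.7 ± 7.03. Txnrd1 was at 46.1 ± 9.59 and 48.9 ± 9.41, the opposite sign to that of the fit. In CPM the libraries of miR-379KO lay below those of WT without overlap for 4 of the 10 genes, those called, where 14.6% of all genes did. Txn2, Prdx5 and Prdx3 overlapped on this scale. Sod2 and Txnrd2 were higher without overlap, as were 49.1% of all genes.

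Ratios of counts within a library do not depend on scaling, so Txn1 was set against its relatives in this way. In total RNA the ratio of Txn1 to Txnip was 0.788 and 0.996 in WT, against 1.36 and 1.42 in miR-379KO. Both miR-379KO libraries were the higher, and the difference was 0.65 on the log2 scale (two-sided exact permutation p = 0.333, the smallest that 2 against 2 libraries allow). In AGO2-IP the ratio was 0.601 and 0.810 in WT, against 0.564 and 0.583 in miR-379KO. There both miR-379KO libraries were the lower, by 0.28 on average on the log2 scale, with a difference between the WT libraries that was larger than this. Counts are not corrected for length, so these ratios compare libraries and not the levels of the 2 genes.

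Against Txnrd1, its reductase, Txn1 had ratios of 0.710 and 0.714 in WT total RNA and 0.583 and 0.671 in miR-379KO total RNA. In AGO2-IP these were 0.443 and 0.499 in WT, against 0.378 and 0.225 in miR-379KO. The log2 differences were −0.19 in total RNA and −0.69 in AGO2-IP, both without overlap (exact permutation p = 0.333 in each). Without miR-379KO B the latter was −0.31. Against Txn2, its mitochondrial counterpart, the ratio was 2.53 and 1.48 in WT, against 2.01 and 1.88 in miR-379KO total RNA, and in AGO2-IP 1.93 and 1.95 compared to 2.05 and 1.33. Groups overlapped in both assays, with log2 differences of 0.01 and −0.23 (exact permutation p = 1 in each).

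Relative to the summed counts of the other 9 genes, Txn1 was at 0.147 and 0.122 in WT, against 0.127 and 0.140 in miR-379KO total RNA, where the log2 difference was −0.01 (exact permutation p = 1). In AGO2-IP it was at 0.118 and 0.141 in WT, against 0.111 and 0.0812 in miR-379KO. The log2 difference was −0.45, without overlap (exact permutation p = 0.333), and −0.22 without miR-379KO B. These 8 tests share the counts of Txn1, and none can reach a p below 0.333, before or after adjustment.

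**Figure D4:**
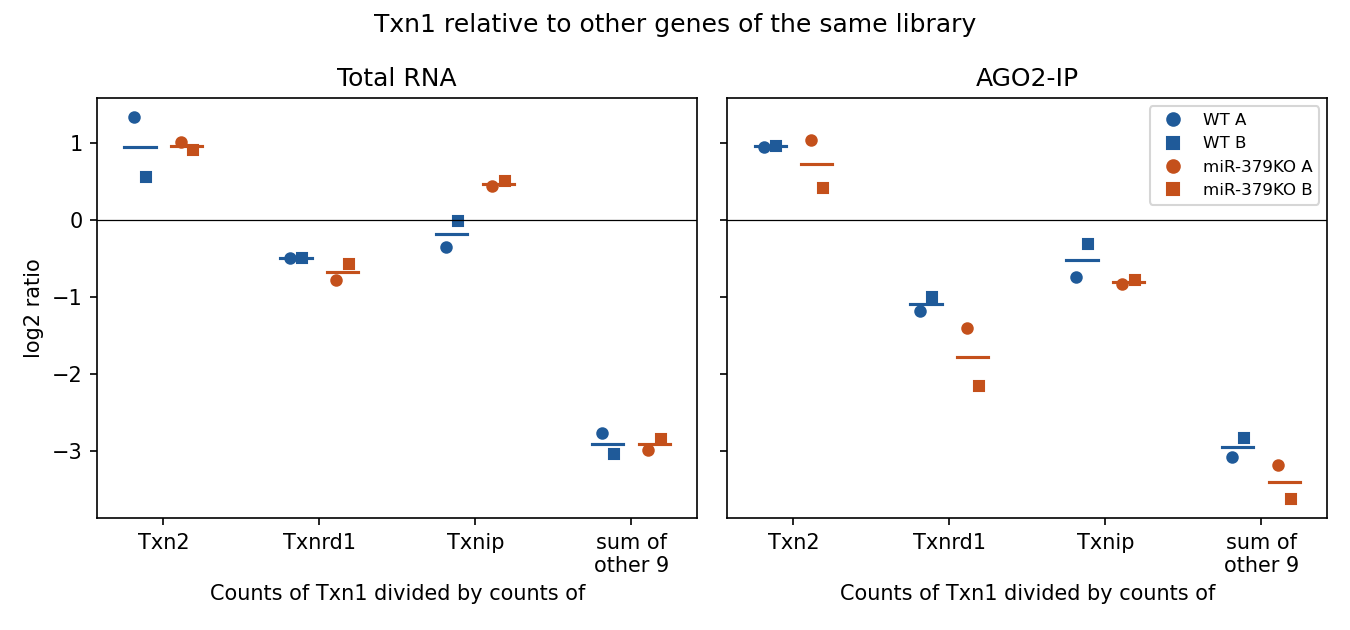
log2 ratio of the counts of Txn1 to those of Txn2, Txnrd1, Txnip and the sum of the other 9 genes in each library, for WT (blue) and miR-379KO (orange), replicates A (circle) and B (square), with the mean as a line. The ratio to Txnip is higher in miR-379KO than in WT in total RNA and lower in AGO2-IP, and the ratio to Txn2 overlaps in both assays.

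The third comparison asked whether the AGO2-IP change of a gene went beyond its change in total RNA, in 1 fit over all 8 libraries. In edgeR 0 of the 10 genes passed at the adjusted threshold, 4 had an unadjusted p under 0.05, and 0 passed in DESeq2. Of all 17421 genes tested, 0% were called in either direction. By the study's cutoff the 4 genes were lower (Txn1, Sod1, Prdx1 and Prdx5) and 0 higher, where 10.9% of all genes were lower and 4.79% higher, and 35.4% of the 3653 genes over 1000 counts were lower and 0.0821% higher. The difference between the log2 fold changes was −1.29 ± 0.40 for Txn1 (95% interval −2.13 to −0.45, unadjusted p = 0.00472, adjusted p = 0.236 in edgeR). It was −1.31 ± 0.44 for Sod1, −1.17 ± 0.42 for Prdx1 and −1.14 ± 0.47 for Prdx5. The median over the 10 was −0.89, and −0.68 over the genes above 1000 counts.

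Txnip, lower in both assays, had a difference of only −0.33 ± 0.36 (interval −1.09 to 0.43, adjusted p = 0.710 in edgeR). Sod2 was at 0.14 ± 0.38 and Txnrd2 at −0.15 ± 0.52. Txn2 (−0.98 ± 0.47), Txnrd1 (−0.79 ± 0.38) and Prdx3 (−0.60 ± 0.40) lay between. Without WT B of total RNA, 5 of the 10 genes passed at the adjusted threshold, with Txn1 at −1.47 (adjusted p = 0.0269 in edgeR). All 5 were lower, as were 7.78% of all genes and 26.1% of those over 1000 counts in that fit. By the study's cutoff the count of 4 became 7 without that library, 1 without WT B of AGO2-IP and 0 without miR-379KO B of AGO2-IP. The share of all genes that were lower was 19.2%, 2.45% and 1.96% in these fits, and that of genes over 1000 counts was 52.8%, 6.08% and 4%.

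**Figure D5:**
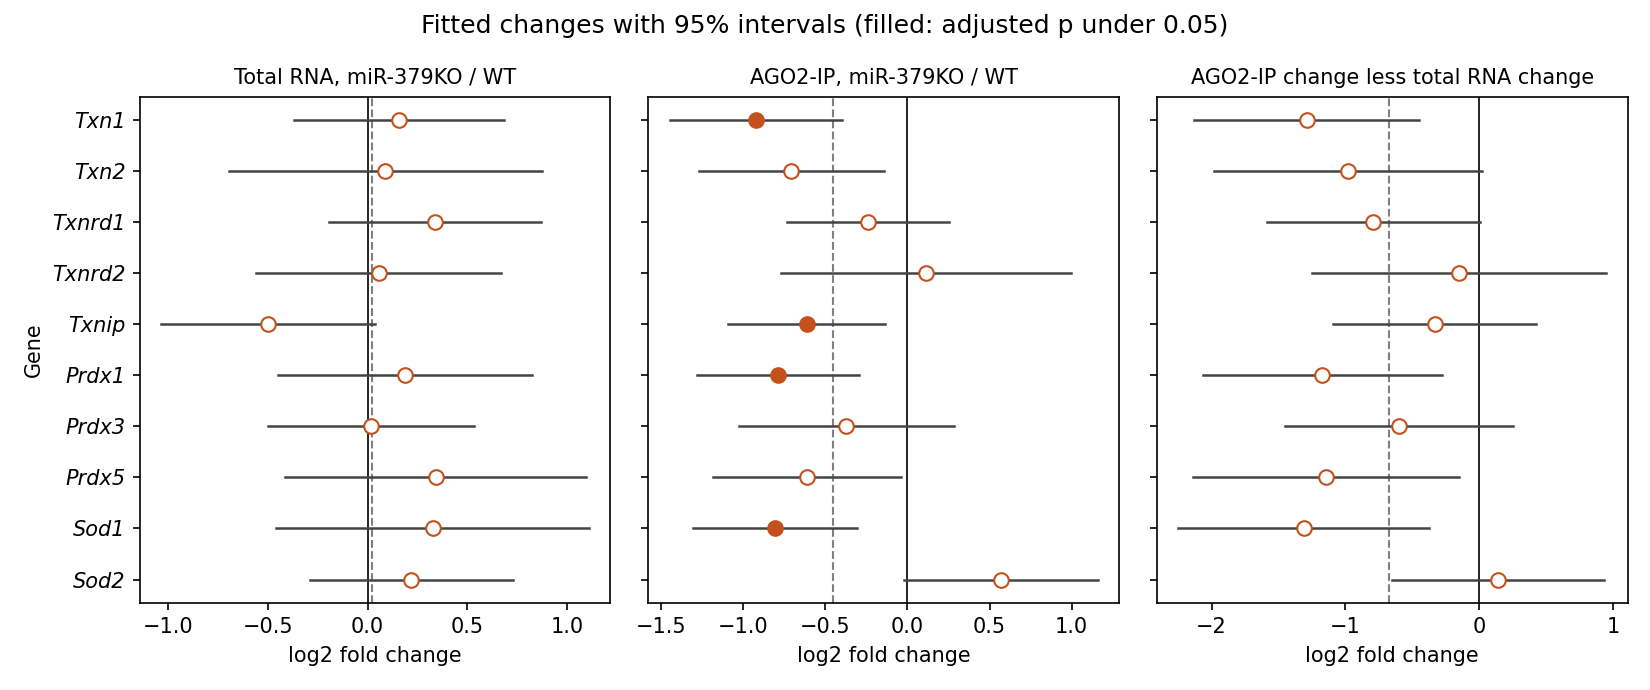
Fitted log2 fold changes (points) with 95% intervals (bars) for the 10 genes in total RNA, in AGO2-IP, and for the AGO2-IP change less the total RNA change, with filled points at an adjusted p under 0.05. The dashed line is the median of genes with over 1000 counts in total RNA, at −0.45 in AGO2-IP, and the 4 filled points of Txn1, Txnip, Prdx1 and Sod1 lie to the left of it.

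How strongly each transcript was recovered with AGO2 was described by AGO2-IP against total RNA within a genotype. The assay and the library protocol changed together and cannot be told apart, and both comparisons share libraries with the one before. In WT, 7 of the 10 genes were lower in AGO2-IP and 0 higher, against 12.8% and 38.7% of all 17421 genes and 38.2% and 8.24% of those over 1000 counts. In miR-379KO, 8 of the 10 were lower and 0 higher, against 25.8% and 43.9% of all genes and 69.5% and 3.81% of those over 1000 counts. The median of the 10 was −1.13 in WT and −2.02 in miR-379KO, where all genes had 0.49 and 0.47 and those over 1000 counts −0.45 and −1.09.

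In this fit Sod1 had the lowest log2 difference of AGO2-IP from total RNA, at −1.60 ± 0.31 in WT and −2.91 ± 0.33 in miR-379KO. Prdx5 followed at −1.53 ± 0.33 and −2.67 ± 0.35, and Prdx1 at −1.44 ± 0.30 and −2.61 ± 0.32. Across alternative fits that kept all libraries, Sod1 rose to as much as −0.77 in WT and −1.515 in miR-379KO. Prdx1 stayed at or below −1.31 and −2.09 across them. Txn1 was at −1.08 ± 0.28 in WT (adjusted p = 0.00374 in edgeR) and −2.37 ± 0.29 in miR-379KO (adjusted p = 2.46e-06), near Txn2 with −1.18 ± 0.33 and −2.16 ± 0.35. Prdx3 was at −1.28 ± 0.28 and −1.88 ± 0.29. Txnip was less depleted, with −0.76 ± 0.25 (adjusted p = 0.0189) and −1.09 ± 0.26 (adjusted p = 0.00123).

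Values above that of the candidate target Txn1 in WT were thus found in this fit for Txnip, Sod2, Txnrd1 and Txnrd2. The highest alternative value of Sod1 in WT, −0.77, was also above Txn1, which stayed at −0.96 or lower across the alternative fits. Txnrd1 had −0.49 ± 0.27 in WT, which did not pass (adjusted p = 0.131 in edgeR), and −1.29 ± 0.27 in miR-379KO. Sod2 (−0.61 ± 0.27 and −0.46 ± 0.26) and Txnrd2 (−0.26 ± 0.37 and −0.41 ± 0.37) did not pass in either genotype. With the GC and length offset Txnrd1 was at 0.068 and Txnrd2 at 0.14 in WT.

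As a wider set, 40 other redox genes, among them the remaining peroxiredoxins, glutathione peroxidases, glutaredoxins, sestrins and the enzymes of glutathione synthesis, were described alongside. In total RNA 0 of the 40 passed in edgeR, 31 were above 0 and the median log2 fold change was 0.16, where 51.3% of all genes tested were below 0. In AGO2-IP 37 were tested (Msrb2, Sod3 and Nqo1 were too low), of which 4 were lower and 1 higher, and the median was −0.25. Of all genes tested 9.42% were lower and 21.4% higher, and of those over 1000 counts 26% and 0.192%. The peroxiredoxins Prdx2 and Prdx6 were among the 4 redox genes that fell. Prdx2 had 154 and 186 counts in WT, against 109 and 76 in miR-379KO (−0.69 ± 0.24, adjusted p = 0.0302 in edgeR), and Prdx6 128 and 212 against 83 and 90 (−0.79 ± 0.28, adjusted p = 0.0378). Prdx4, the peroxiredoxin of the endoplasmic reticulum, had 70 and 49 against 57 and 56 (0.14 ± 0.26), and Txnrd3 was at −0.12 ± 0.44.

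Sesn2, a stress-induced sestrin, fell by 0.89 on the log2 scale (adjusted p = 0.00848 in edgeR) and Gclc, the catalytic subunit of glutamate-cysteine ligase, fell by 0.76 (adjusted p = 0.0168). Gsr, the glutathione reductase, was the 1 that rose, with 26 and 27 counts in WT, against 37 and 47 in miR-379KO (0.87 ± 0.31, adjusted p = 0.0386). The count of 4 became 1 without WT B or without miR-379KO B of AGO2-IP (where 5.11% and 1.09% of all genes, and 11.7% and 2.9% of those over 1000 counts, were lower), and that of 1 became 0 without WT B, miR-379KO A or miR-379KO B. For the AGO2-IP change beyond that of total RNA, 0 of the 40 passed in edgeR and 8 had an unadjusted p under 0.05. Of the 40, 31 were below 0, where 49.7% of all genes tested were, and their median was −0.56. Without WT B of total RNA 11 passed, all lower, where the shares of all genes and of those over 1000 counts were the 7.78% and 26.1% given above. Prdx2 was at −1.23 ± 0.43, Prdx6 at −1.35 ± 0.46, Prdx4 at −0.30 ± 0.40, Txnrd3 at −0.36 ± 0.52 and Sod3, the extracellular dismutase, at −1.11 ± 0.97. In AGO2-IP against total RNA 18 of the 40 were lower and 0 higher in WT. There 12.8% of all genes were lower and 38.7% higher, and 38.2% and 8.24% of those over 1000 counts. In miR-379KO 28 of the 40 were lower and 1, Map3k5, higher. There 25.8% of all genes were lower and 43.9% higher, and 69.5% and 3.81% of those over 1000 counts.

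The genes whose profile over the 8 libraries was most like that of Txn1 were Ndufa4 (Pearson r = 0.997 of log2 CPM), Rer1 (0.995) and Nap1l4 (0.995), among the 4855 genes that averaged 50 counts or more in each of the assays. The same 3 had the smallest root mean square difference from Txn1 after centring, 0.0795, 0.105 and 0.130 log2 units. Of the other members, Prdx1 came closest, at rank 21 by r (0.988), followed by Sod1 (0.957), Prdx5 (0.956), Txn2 (0.951), Txnip (0.879) and Txnrd1 (0.872). These values are a description. The points share libraries, and all include the step between the assays.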

How the data were processed

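The 10 genes, the gene lists and the tests were chosen with earlier results of these data known. The authors deposited 1 list of unnormalized gene counts (whole reads) per sample. Per the study's methods, stranded poly(A) libraries (total RNA) and libraries described as small RNA-seq (AGO2-IP) were aligned to mm10 with TopHat and counted by strand on RefSeq genes with htseq-count (HTSeq 0.6.0 in the submitters' processing notes). Entries without a gene name (20, at most 0.00209% of counts) were left out.

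Counts were tested in edgeR 4.0.16 (R 4.3.3) with TMM factors, filterByExpr (minimum count 10), robust dispersions and its quasi-likelihood F test, and p-values were Benjamini-Hochberg adjusted over all genes tested. Genotypes were compared within the 4 libraries of each assay, and the assays in 1 fit of all 8 libraries. Ratios of Txn1 were tested by exact permutation. The edgeR fits were also run on simulated counts with known changes, the same dispersion for every gene and no other genotype difference. Such counts lack the AGO2-IP differences in make-up given above, so they do not test how the fits deal with those. Coordinates, 3′-UTRs, exon lengths and sequences were taken from RefSeq on GRCm38.p6, whose chromosomes are those of mm10. Copies were searched with blastn. Replicates differed by more than sampling noise in each group (chi-square per degree of freedom 3.51 to 119). Counts limit the precision most in AGO2-IP, where the 10 genes had 11 to 341 counts per library.

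All members were named. Of the 40 other redox genes, Prdx2, Prdx4, Prdx6, Sod3 and Txnrd3 were named, and up to 3 per direction past the threshold. Alternatives were DESeq2 1.42.0, RLE factors, TMM factors from genes expressed in total RNA or without the 20 most abundant genes, other filters on low counts, an offset for GC and length, replicate blocks, all 8 libraries in 1 fit and omission of each replicate.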

Additional observations from a re-analysis of the deposited data

How the results depend on the processing

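Of the results on single members, 416 kept direction and side of the threshold across the alternatives that keep all libraries, 16 lost significance, 13 gained it and 32 changed sign. With 1 library left out, where a lone replicate is assumed to vary like the other groups, these counts were 279, 9, 16 and 16. Causes were not tested. The AGO2-IP value of Txn1 was −0.55 (adjusted p = 0.216) when genes averaged 50 counts or more and −1.08 (0.0508) with all 8 libraries in 1 fit, and −1.26 to −0.63 with 1 library left out. Over its other alternatives it passed, with DESeq2 at −1.21 (0.0145). The number of members lower in AGO2-IP was 0 with at least 50 counts, 0 with all 8 libraries and 0 to 6 with 1 library left out. The AGO2-IP change of Txn1 beyond total RNA was −1.47 to −0.68 with 1 library left out, and 0 to 5 members passed.

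The letters A and B were not shown to pair samples. The deviations of same-letter samples correlated at −0.10 in total RNA (10762 genes), 0.03 in AGO2-IP (4971 genes), and 0.20 and 0.18 between the assays in WT and miR-379KO. With the replicate block Txn1 in AGO2-IP was at −0.90 (adjusted p = 0.00830). The call of Txnip was lost with this block (0.0570, and 0.0536 with the offset added). With the replicate block and the GC and length offset 2 members were lower in AGO2-IP. In that fit 811 of all 13149 genes tested were lower and 2083 higher. Of the 3567 genes there with a mean over 1000 counts in total RNA, 590 were lower and 6 higher. The crossed pairing, added after the data were seen, gave 1 call over all genes in total RNA and 0 among the members.

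Relative to the median of the other 9 genes, Txn1 in total RNA differed by −0.18. In CPM of all gene counts, per kb, Txn1 was at 186 in WT total RNA, and in AGO2-IP at 12.1 in WT and 10.9 in miR-379KO. With TMM factors over all 8 libraries it was at 78.5 in WT and 91.1 in miR-379KO for total RNA, and at 37.2 and 17.5 for AGO2-IP.

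Signs changed as follows. With the GC and length offset, and with it plus the replicate block, the total RNA value was −0.045 and −0.041 for Txn2, −0.075 and −0.073 for Txnrd2, and −0.060 and −0.057 for Prdx3. In AGO2-IP Prdx5 was at 0.052 and 0.071 and Sod1 at 0.061 and 0.063 under these. For the AGO2-IP change beyond total RNA, Txnrd2 was at 0.17 and 0.19 and Sod2 at −0.26 and −0.30. For AGO2-IP against total RNA, Txnrd1 was at 0.068 and 0.056 and Txnrd2 at 0.14 and 0.12 in WT, and Txnrd2 at 0.31 and 0.32 in miR-379KO. With at least 50 counts, Txnrd1 in AGO2-IP was at 0.14, the change beyond total RNA was 0.25 for Txnrd2 and 0.072 for Txnip, and AGO2-IP against total RNA in miR-379KO was 0.12 for Txnrd2 and 0.067 for Sod2. Txnrd2 in AGO2-IP was at −0.14 in DESeq2, −0.10 with no filter and −0.029 with all 8 libraries in 1 fit, and its change beyond total RNA was 0.10 in DESeq2, 0.11 with RLE factors, 0.18 with TMM factors from expressed genes and 0.11 without the 20 most abundant genes.

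With 1 library left out, the total RNA value ranged from −0.27 to 0.58 for Txn2, −0.043 to 0.17 for Txnrd2, −0.012 to 0.42 for Prdx1, −0.095 to 0.14 for Prdx3, −0.014 to 0.82 for Prdx5 and −0.022 to 0.79 for Sod1. Txnrd2 in AGO2-IP ranged from −0.16 to 0.37. The change beyond total RNA ranged from −0.32 to 0.36 for Txnrd2, −0.41 to 0.15 for Txnip, −0.87 to 0.0087 for Prdx3 and −0.062 to 0.64 for Sod2. Over all genes, the AGO2-IP split of 2884 higher and 1272 lower became 86 and 1313 in DESeq2, 3341 and 572 with TMM factors from expressed genes, 2778 and 2379 with no filter, 234 and 40 with at least 50 counts and 371 and 307 with all 8 libraries.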

Other observations

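Gpx3, the secreted glutathione peroxidase and 1 of the 40 other redox genes, was singled out after its values were seen. In total RNA it had 1336 counts in WT A, 16165 in WT B, 10147 in miR-379KO A and 1828 in miR-379KO B, and in AGO2-IP 41, 79, 69 and 21 in the same order. The replicates of a genotype thus differed far more than the genotypes did, with a log2 fold change in total RNA of −0.81 ± 1.16 (SE). WT B and miR-379KO A were the high libraries in both assays.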
